A study of Xenopus laevis with 4 samples.

Results

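The genes described here are widely detected in the gastrula ectoderm of Xenopus laevis and vary most from cell to cell. They were chosen by measured values. Every cell of both IVF libraries was thinned at random to 6000 UMIs (unique molecular identifiers, each standing for 1 captured transcript). Of 31179 genes in the files, 2137 had a UMI in at least 30% of the thinned cells of each IVF library, and these were ranked by the variance of their UMIs over cells divided by the mean. The 150 genes of best mean rank were taken. Of these, 57 were left out as belonging to the 100 genes of highest mean level over all libraries, in CPM (counts scaled to a common library total), and 4 (1 of them among the 57) because their NT over IVF ratio was beyond 0.8 on the log2 scale the same way in both experiments. This left 90 members.

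The libraries hold single cells from ectoderm explants of embryos at stage 12, a late gastrula stage. IVF embryos were made by in vitro fertilization. NT embryos were made by nuclear transfer: nuclei of endoderm cells from neurula embryos were placed into eggs whose own nucleus had been removed. The question behind the design is whether the epidermal lineages form from a reprogrammed nucleus as they do after fertilization. IVF and NT cells were measured once in each of 2 experiments, which gives 4 libraries, called IVF1 and NT1 for experiment 1 and IVF2 and NT2 for experiment 2. Each library came from a pool of 5 embryos, so cells cannot be assigned to embryos and the spread between embryos is not visible. NT embryos whose shape differed from IVF embryos at stage 12 had been set aside, so the NT libraries stand only for clones of like shape at that stage.

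In the frog gastrula the ectoderm is built of an outer, epithelial layer and an inner, sensorial layer. The outer layer goes on to form the mucus-secreting surface cells of the larval skin, while the inner layer holds the precursors of multiciliated cells, ionocytes and basal cells. Cells of both layers are recovered together when an explant is dissociated, so a gene used by only one layer could differ between cells of a library. The files name genes by identifier only, and none of the 31179 identifiers matched an annotated gene in the reference used. The members therefore carry no gene name or function here, neither the labelled tissue nor any layer could be checked against marker genes, and groups of members are known by number.

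The libraries held 566 (IVF1), 514 (NT1), 1275 (IVF2) and 1050 (NT2) cells, with 16543235 to 58592836 UMIs in all and a median of 23346 to 45100.5 UMIs per cell. Depth was lower in experiment 1 than in experiment 2, which is why every cell was thinned. No cell fell below 6000 UMIs (the lowest held 6332), and 0 barcodes were shared between libraries. The sources name both the v2 and the v3 version of the 10x chemistry without tying either to a library.

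The variance over mean that chose the members is a description of the IVF libraries. Its median over the members was 2.199 in IVF1 and 2.84 in IVF2, against 1.12 and 1.11 over all widely detected genes. Counting noise alone gives a value near 1. The last member by rank, Xelaev18012172m.g at place 150, had 1.68 in IVF1 and 1.95 in IVF2. The first gene outside, Xelaev18025899m.g at place 151, had 1.85 and 1.74. No gap separated members from genes just beyond the limit.

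The NT libraries did not enter the ranking. There the median variance over mean of the members was 2.88 in NT1 and 2.68 in NT2, against 1.14 over widely detected genes in both. By the same rule applied to each NT library, 66 of the 86 members that passed the detection limit in NT1 (76.7%) fell within the 150 most variable genes, where 5.11% of all genes passing that limit did. In NT2 it was 57 of 89 members (64.0%), against 5.92%. A total of 47 of the 85 members that passed in both (55.3%) were within the 150 of both NT libraries, against 4.25%. The members were thus mostly, but not all, among the most variable genes of the cloned embryos as well.

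Correlating the members over cells in each IVF library (Pearson r of log2(UMI + 1)), averaging both and clustering gave 5 groups. Group 1 held 54 members, group 2 held 17, group 3 held 11, and groups 4 and 5 held 4 each. A single axis carried 39.5% of the summed variance of the members in IVF, and the next carried 3.05%. Along the axis set in IVF cells, the members' variance was 35.2 of 90 in IVF1, 35.9 in IVF2, 36.9 in NT1 and 33.3 in NT2. The dominant structure was therefore 1 program with 2 opposed ends, and it had nearly the same weight in NT cells.

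**Figure D1:**
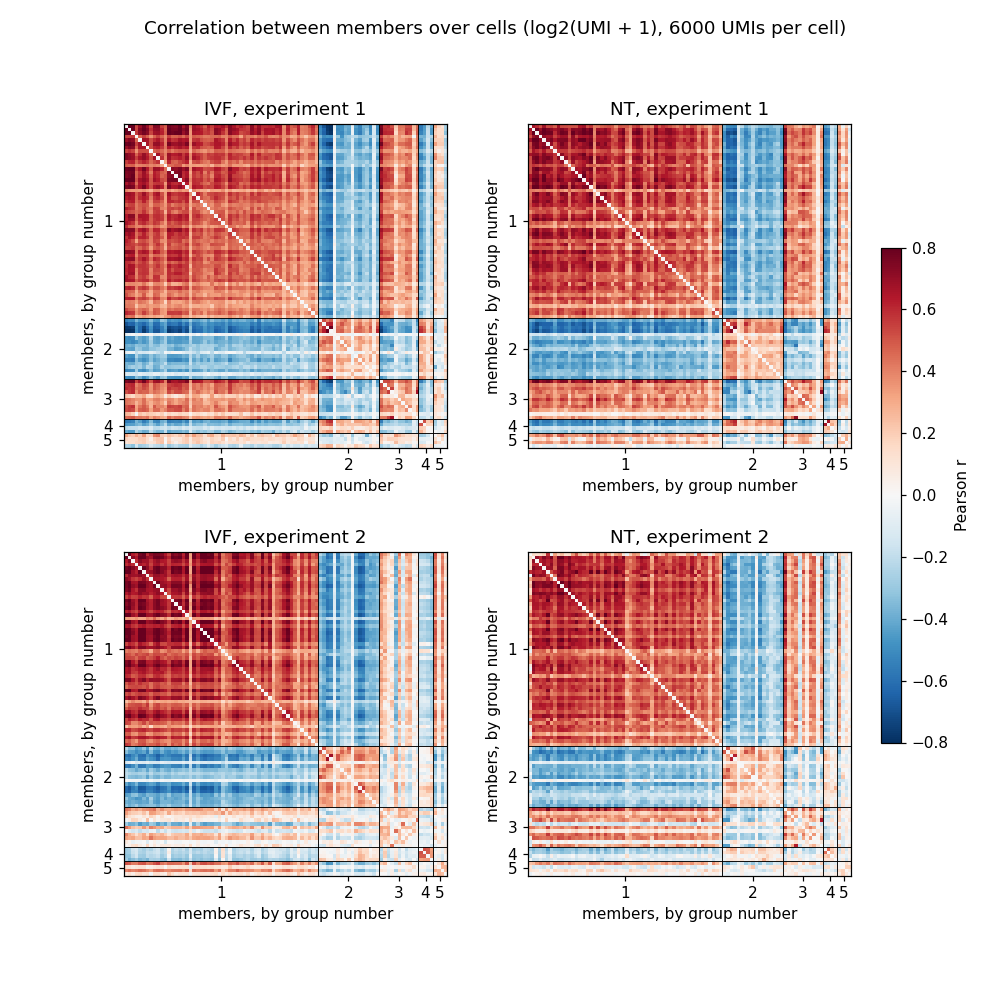
Pearson r between all pairs of the 90 members over cells, 1 panel per library, with members on both axes ordered by group (black lines) and the diagonal blanked. The block of group 1 is red, its block with group 2 is blue in all 4 panels, and the block of group 1 with group 3 is paler in IVF2 (mean r 0.0899) than in IVF1 (0.365).

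Group 1 was the joint program. The mean r between its members was 0.473 in IVF1 and 0.508 in NT1, and 0.541 in IVF2 and 0.495 in NT2. All 54 members had an r of at least 0.1 with the summed UMIs of the rest of the group in all 4 libraries. The lowest of these values was 0.432 in IVF1 and 0.313 in NT1, and 0.397 in IVF2 and 0.315 in NT2. No member of group 1 left the program in either NT library.

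Group 2 was the opposed program. Its mean r with group 1 was -0.334 in IVF1 and -0.368 in NT1, and -0.351 in IVF2 and -0.295 in NT2. An r of at most -0.1 with group 1 was seen for 16 of 17 members in IVF1 and 17 in NT1, and 16 in IVF2 and 16 in NT2. Most of its members also rose and fell together, with a mean r among all 17 of 0.242, 0.273, 0.262 and 0.196 in the same order. Xelaev18022166m.g and Xelaev18000724m.g were nearly unlinked to the others, with a mean r of 0.0447 and 0.0565 in IVF.

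**Figure D2:**
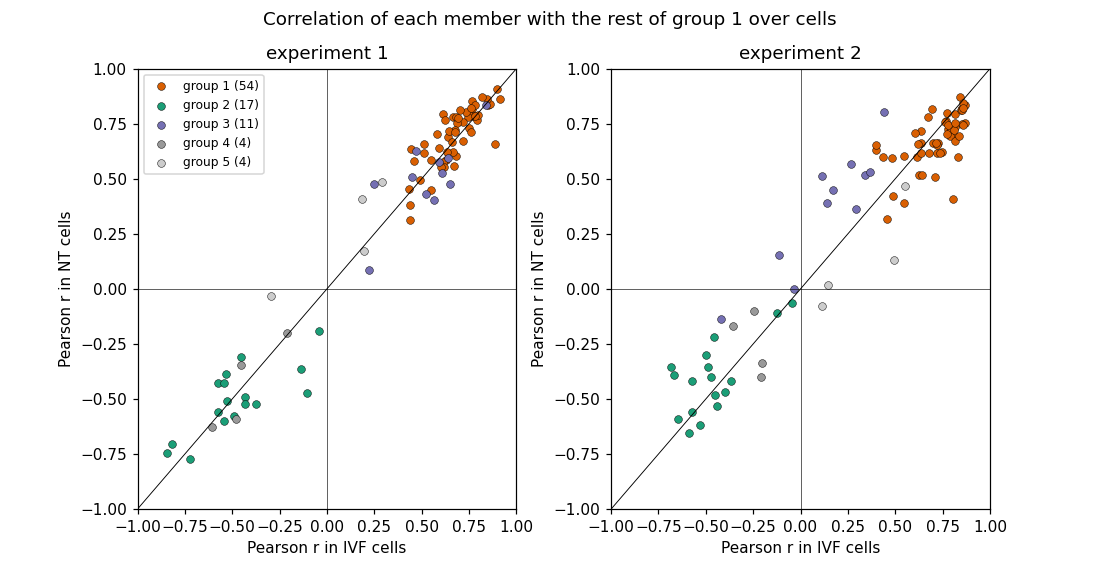
Each point is 1 of the 90 members, with its Pearson r with group 1 (own UMIs left out) in IVF cells on the x axis and in NT cells on the y axis, 1 panel per experiment, coloured by group. Group 1 lies in the upper right and group 2 in the lower left corner of both panels, while several members of group 3 lie nearer to 0 in IVF cells of experiment 2 than in NT cells.

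Counting single pairs gave the same picture. Of the 4005 pairs of members, 2020 had an r of at least 0.1 in both IVF libraries and 1063 an r of at most -0.1. Over all 2282316 pairs of widely detected genes these shares were 2.51% and 2.68%. In both NT libraries 1937 of the 2020 positive pairs (95.9%) and 993 of the 1063 negative pairs (93.4%) passed the same limit. The shares kept over all widely detected genes were 58% and 51.1%. None of the 3083 member pairs had the opposite sign past the limit in both NT libraries. Such pairs were rare over all widely detected genes too, with 6 positive and 7 negative ones of 118395. The members were chosen for high variance in IVF, and the part of this in the higher shares kept was not tested. Within experiments, where a pair had to pass in 1 IVF and 1 NT library only, 95.3% of pairs were kept in experiment 1 and 90.1% in experiment 2. The share kept over all widely detected genes was not taken within experiments, so 58% and 51.1% are no background for these values. Of 3690 pairs in experiment 1, 2 positive and 2 negative ones had the opposite sign past the limit in NT1. Of 3393 in experiment 2, 12 and 12 did in NT2.

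Taking the r of every pair as 1 point, the correlation between libraries was 0.961 for IVF1 and NT1 and 0.915 for IVF2 and NT2. Between the IVF libraries of the 2 experiments it was 0.856. For NT2 it was 0.916 with IVF1 and 0.923 with NT1, so NT2 lay no closer to the IVF library of its own experiment than to the libraries of experiment 1. The pairs share genes, so these values are a description.

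The program did not vary smoothly over cells. The share of a cell's UMIs falling on group 1 had few cells in between a low and a high range. A limit of 2% of UMIs, set after the distribution had been seen, divides them. The median share on group 1 was 3.65% in high-range and 0.650% in low-range cells of IVF1 and 3.48% and 0.567% in NT1, and 5.94% and 1.10% in IVF2 and 4.32% and 0.617% in NT2. Group 2 went the other way, with medians of 0.583% in high-range and 1.25% in low-range cells of IVF1 and 0.450% and 1.17% in NT1, and 0.367% and 1.07% in IVF2 and 0.467% and 1.02% in NT2. The 4 libraries had the same order of both groups, and NT2 cells reached a lower group 1 share than IVF2 cells. Between 1.5% and 2.5% lay 14 cells of IVF1, 14 of NT1, 122 of IVF2 and 49 of NT2, so the ranges were least clearly apart in IVF2.

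**Figure D3:**
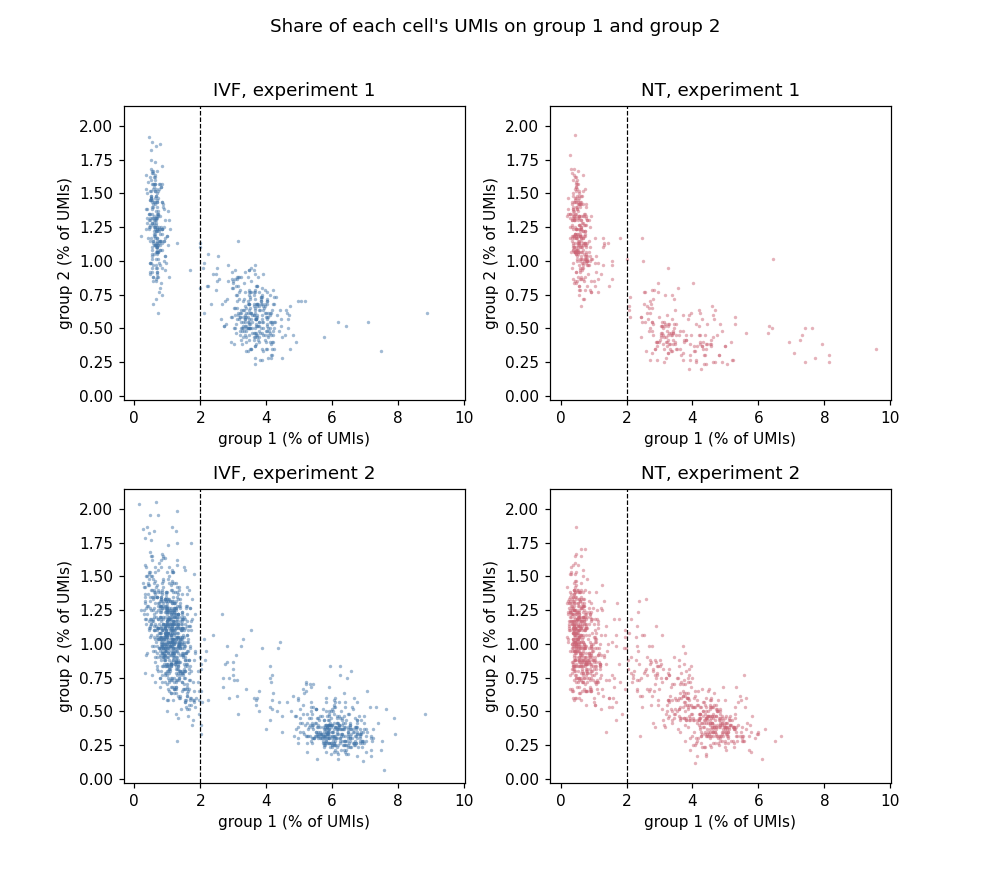
Each point is 1 cell thinned to 6000 UMIs, with the percent of its UMIs on group 1 on the x axis and on group 2 on the y axis, 1 panel per library. Cells fall into a low and a high range on either side of the dashed line at 2%, and group 2 is lower where group 1 is high (r of -0.841 in IVF1 and -0.822 in NT1, and -0.834 in IVF2 and -0.822 in NT2).

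Over cells, the shares of groups 1 and 2 had an r of -0.841 in IVF1 and -0.822 in NT1, and -0.834 in IVF2 and -0.822 in NT2. Both shares are parts of the same 6000 UMIs, and the part of this in their r was not tested. Group 2 was picked for its negative mean r with group 1 in IVF, so the sign there was set by the choice. The share of group 1 had an r of -0.0689 to 0.142 with a cell's total UMIs before thinning. With the number of genes detected after thinning it had an r of 0.242 to 0.441, and with the share on the 100 most abundant genes one of -0.436 to -0.223. Total depth thus hardly moved with the share of group 1. For the share of group 2, the r with total UMIs was -0.0776 in IVF1 and -0.279 in NT1, and -0.0284 in IVF2 and -0.185 in NT2. High-range cells tended to spread their UMIs over more genes. The part of that in the program was not tested.

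High-range cells made up 57.8% of IVF1 (exact 95% interval 53.6 to 61.9), 39.1% of NT1 (34.9 to 43.5), 34.7% of IVF2 (32.1 to 37.4) and 43.5% of NT2 (40.5 to 46.6). The intervals cover counting error only. The NT share was lower than the IVF share in experiment 1 and higher in experiment 2, so the change had no common direction. The difference in experiment 2 depended on the limit: at 1.5% of UMIs the shares were 43.3% in IVF2 and 45.5% in NT2. With 2 libraries a group, an exact permutation test could not give a p below 0.333. The share of cells in the high range also sets each member's level in a summed library, where fewer cells of a range and less RNA per cell cannot be told apart.

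Between ranges, group 1 members differed severalfold. With a gene's own UMIs left out of the share, the median ratio of mean UMIs in high-range over low-range cells was 8.08 in IVF1 and 9.95 in NT1, and 6.74 in IVF2 and 5.98 in NT2, and all 54 ratios were above 1 in all 4 libraries. The median ratio in group 2 was 0.41 in IVF1 and 0.39 in NT1, and 0.36 in IVF2 and 0.47 in NT2, and all 17 were below 1 in all 4 libraries. The groups were formed on these same IVF cells, so the IVF ratios describe the grouping, and the NT ratios show it in cells that did not form it.

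Xelaev18021227m.g had the highest loading on the axis and was the most central member of group 1. It averaged 11.4 UMIs per 6000 in high-range and 0.556 in low-range cells of IVF1 and 6.82 and 0.277 in NT1, and 11.9 and 0.426 in IVF2 and 6.35 and 0.289 in NT2. The level in high-range cells was lower in both NT libraries than in both IVF libraries, and the contrast between ranges was more than 20-fold in each library (ratios of 20.6 in IVF1 and 24.6 in NT1, and 27.9 in IVF2 and 21.9 in NT2). Xelaev18036509m.g, also of group 1, had ratios of 39.5 in IVF1 and 49.0 in NT1, and 44.9 in IVF2 and 61.6 in NT2.

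At the opposite end stood Xelaev18041402m.g and Xelaev18038148m.g, the most central members of group 2. Xelaev18041402m.g averaged 0.138 UMIs in high-range and 3.94 in low-range cells of IVF1 and 0.0846 and 3.00 in NT1, and 0.204 and 3.06 in IVF2 and 0.0613 and 1.69 in NT2. Xelaev18038148m.g averaged 0.144 and 4.31 in IVF1 and 0.0746 and 3.90 in NT1, and 0.231 and 2.67 in IVF2 and 0.0897 and 2.10 in NT2. Both were close to silent in high-range cells of every library. The most negative pair of the members in IVF, Xelaev18021227m.g with Xelaev18041402m.g, had an r of -0.767 in IVF1 and -0.630 in NT1, and -0.610 in IVF2 and -0.464 in NT2, and so kept its sign in each library.

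Other members of group 2 were used by nearly every cell. Xelaev18045052m.g averaged 2.45 UMIs in high-range and 5.10 in low-range cells of IVF1 and 2.39 and 6.22 in NT1, and 3.58 and 8.22 in IVF2 and 2.88 and 6.90 in NT2. It was found in 94.2% to 98.2% of the cells of each library. Group 2 thus joined genes confined mostly to low-range cells with genes that nearly every cell used at unequal levels.

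Group 3 was tied to group 1 in experiment 1 and less firmly in experiment 2. Its mean r with group 1 was 0.365 in IVF1 and 0.355 in NT1, but 0.0899 in IVF2 and 0.261 in NT2. An r of at least 0.1 with group 1 was seen for 11 of 11 members in IVF1 and 10 in NT1, and 8 in IVF2 and 9 in NT2, and one of at most -0.1 for 2 members in IVF2 and 1 in NT2. Over cells, the shares of groups 1 and 3 had an r of 0.866 in IVF1 and 0.831 in NT1, and 0.120 in IVF2 and 0.678 in NT2. In experiment 2 the cloned embryos showed the link between groups 1 and 3 more strongly than the fertilized ones, a contrast of 1 library with 1 that was not tested. What differed between the experiments, depth included, cannot be told apart.

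The most central member of group 3, Xelaev18026124m.g, had an r with group 1 of 0.842 in IVF1 and 0.837 in NT1, and 0.439 in IVF2 and 0.804 in NT2. Its level in low-range cells was 1.27 UMIs in IVF1 and 1.21 in NT1, and 5.54 in IVF2 and 2.25 in NT2, while in high-range cells it was 8.15 to 11.1. For this gene the weaker link in IVF2 came with a higher level in low-range cells. The second most central member, Xelaev18023103m.g, had an r with group 1 of 0.641 in IVF1 and 0.113 in IVF2. Its low-range level was 1.92 UMIs in IVF1 and 1.71 in IVF2, and its high-range level 5.96 and 2.25. The 2 genes thus differed in what went with the weaker link. Xelaev18047886m.g, chosen after its values were seen, changed sign: its r with group 1 was 0.247 in IVF1 and 0.475 in NT1, and -0.421 in IVF2 and -0.136 in NT2.

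Groups 4 and 5 were too small to describe as programs. The 4 members of group 4 had an r with group 1 of -0.627 to -0.102 over the 4 libraries, on the side of group 2. Those of group 5 had values from -0.298 to 0.552 and took no steady side.

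The program reached beyond the members. Of all 2137 widely detected genes, 145 (6.79%) had an r of at least 0.3 with group 1 in all 4 libraries and 53 (2.48%) an r of at most -0.3. Among the members these were 57 of 90 (63.3%) and 12 of 90 (13.3%). Group 1 was formed from the members by their r in these same IVF cells, and group 2 was picked for its negative r with it. The higher shares among the members are thus partly built in and are a description. Of the 57 genes left out for their abundance, 15 were on the side of group 1 and 19 on the opposed side. Of the 1987 genes outside the 150, 71 and 22 were. The genes of the program thus lay within and outside the members, those left out for their abundance included.

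Inside each range the members of group 1 were less correlated than over all cells. Here each alternate member of group 1 by rank set the range and r was taken over the others, so that no gene chose its own cells. Splitting cells along the program can by itself lower r within each range, and the part of this was not tested. The mean r within group 1 was 0.0429 in high-range and 0.0685 in low-range cells of IVF1, and 0.0770 and 0.0980 in NT1. In experiment 2 it was 0.180 and 0.0603 in IVF2, and 0.123 and 0.104 in NT2. Over all cells it was 0.472, 0.508, 0.541 and 0.494 for IVF1, NT1, IVF2 and NT2, so the fall was smallest in high-range cells of IVF2.

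What was left inside the high range was unequal between libraries. Of the 1431 pairs of group 1, the size of r was at least 0.3 over high-range cells for 7 in IVF1 (0.489%) and 243 in NT1 (17.0%), and for 112 in IVF2 (7.83%) and 271 in NT2 (18.9%). The same share over all pairs of widely detected genes was 0.0745% in IVF1 and 1.46% in NT1, and 0.0418% in IVF2 and 0.225% in NT2. At this depth and limit, both NT libraries were above both IVF libraries, among members and over all genes. Among the pairs of group 1, negative ones past -0.3 were found in NT cells only, 30 in NT1 and 21 in NT2, against 0 in either IVF library. Negative pairs were not counted apart over all widely detected genes, so this cannot be called particular to group 1. NT1 had the fewest high-range cells, 201. With 200 cells drawn from each library the counts were 22 in IVF1 and 243 in NT1, and 129 in IVF2 and 310 in NT2. At 12000 UMIs per cell they were 34 and 305 in experiment 1 and 398 and 476 in experiment 2 (IVF before NT), and at a limit of 3% of UMIs 8 and 403, and 25 and 174. At 12000 UMIs IVF2 thus stood above NT1. These settings were chosen after seeing the data. The same pairs did not always carry it: 6 of the 7 positive pairs of IVF1 were also past 0.3 in NT1, and 51 of the 112 of IVF2 in NT2, where 2 were past -0.3.

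**Figure D4:**
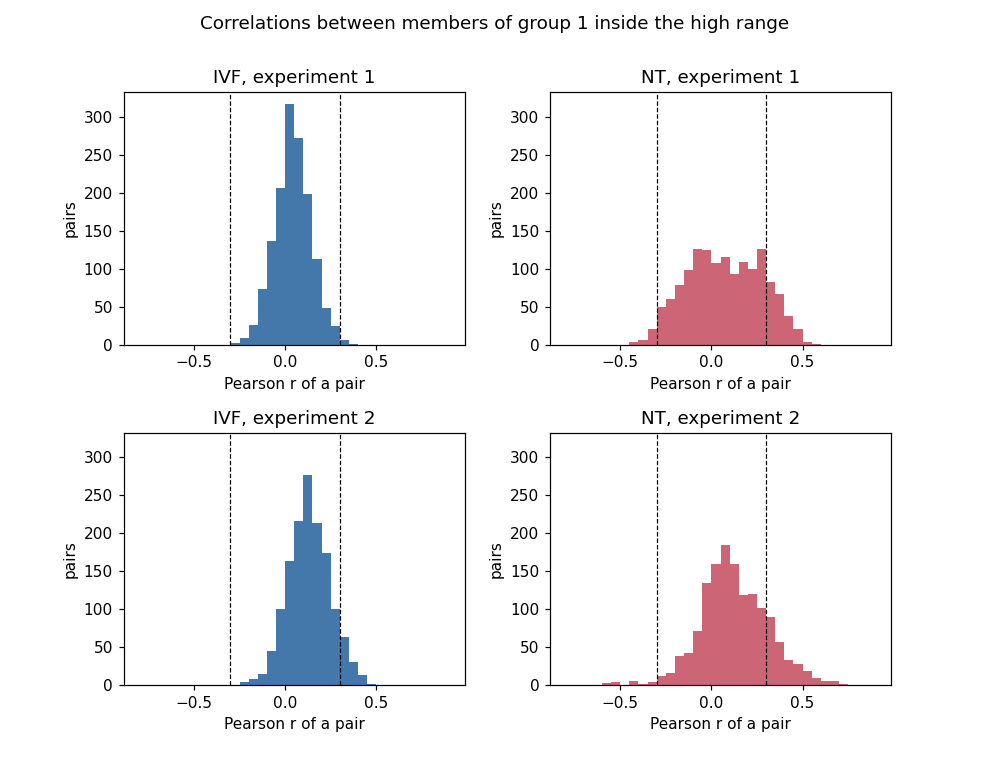
Histograms of Pearson r for the 1431 pairs of group 1 members over high-range cells, 1 panel per library, with dashed lines at -0.3 and 0.3. The NT panels are wider than the IVF panels: 30 pairs in NT1 and 21 in NT2 lie at or below -0.3, and 0 in IVF1 and IVF2.

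In NT2 the negative pairs all had 1 gene in common. Xelaev18038704m.g was part of all 21 of them, whereas in NT1 the gene most often involved, Xelaev18033234m.g (named after its values were seen), was part of 12 of 30. Over all cells Xelaev18038704m.g and Xelaev18021227m.g were the most positive pair of the members in IVF, with an r of 0.852 in IVF1 and 0.829 in IVF2. The pair had an r of 0.657 in NT1 and 0.156 in NT2. Over high-range cells alone its r was 0.0552 in IVF1 and 0.265 in NT1, and 0.414 in IVF2 and -0.576 in NT2. The tightest pair of the IVF embryos was thus nearly unlinked over the cells of NT2.

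The pair came apart in a set of cells of NT2. High-range cells (set without the UMIs of the pair) with any UMI of Xelaev18038704m.g numbered 321 in IVF1 and 146 in NT1, and 432 in IVF2 and 351 in NT2. Of these cells, 1 of IVF1, 4 of NT1, 1 of IVF2 and 75 of NT2 had no UMI of Xelaev18021227m.g. In NT2 most of them held many UMIs of the first gene. With at least 20 such UMIs and none of the other gene, and in any range, there were 96 cells in NT2, 9.14% of that library (exact 95% interval 7.47 to 11.1, counting error within 1 pool only). Of IVF1, 50 cells reached 20 UMIs and 0 of them lacked the other gene, and of IVF2 221 cells did and 1 of them lacked it. Only 1 cell of NT1 reached 20 UMIs, so this limit says nothing of NT1. All limits were set after the values were seen, and 0 of the 96 cells was called a doublet. By the share on all of group 1, the pair's own UMIs included, 83 of them were high-range cells and 13 were not. With the pair's UMIs left out of the share, 69 were high-range cells.

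**Figure D5:**
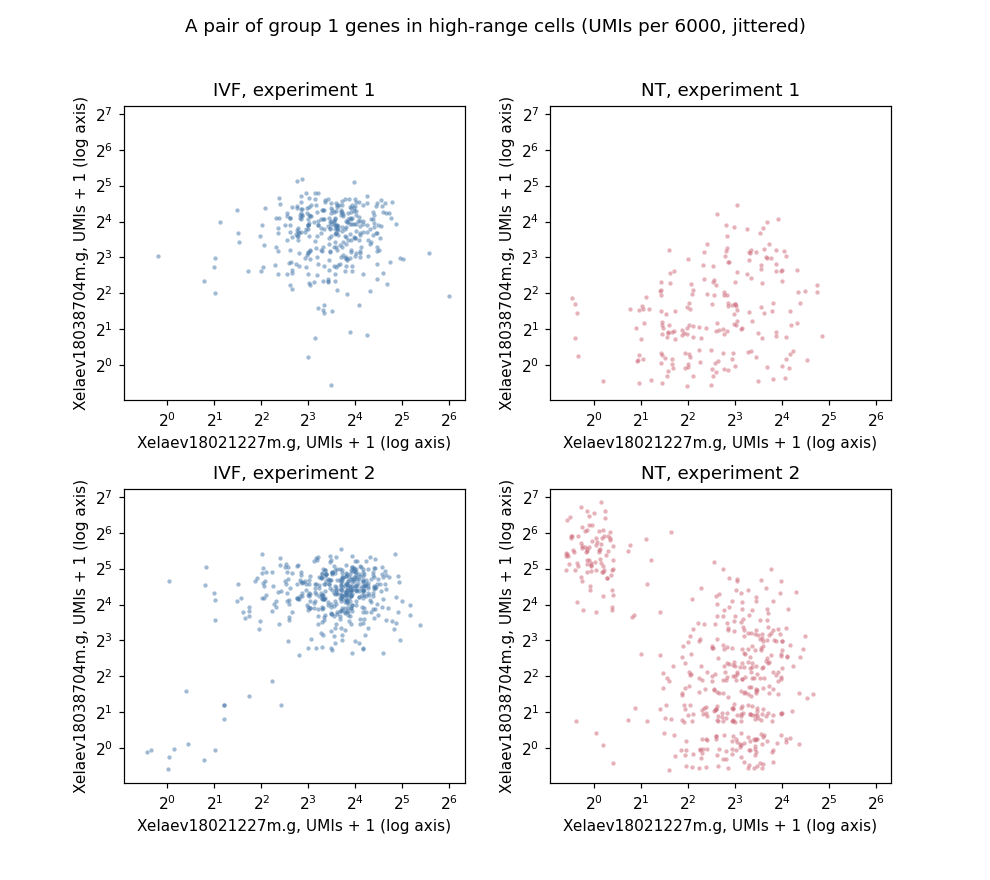
Each point is 1 high-range cell, with UMIs + 1 of Xelaev18021227m.g on the x axis and of Xelaev18038704m.g on the y axis (both log axes, values jittered), 1 panel per library. Only the NT2 panel has a cloud at the upper left, where most of the 83 high-range cells with many UMIs of the one gene and none of the other lie.

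The 83 high-range cells of the set were compared with the 374 other high-range cells of NT2. Xelaev18038704m.g averaged 48.7 UMIs in them against 5.23 in the others, by construction. Of the 52 other members of group 1, 23 were at or below a ratio of 0.5 and 0 at or above 2, with a median ratio of 0.60. Of the 17 members of group 2, 4 were at or above 2 and 1 at or below 0.5, with a median ratio of 1.45. The same counts were not taken over all widely detected genes, so they cannot be called particular to the groups. The median share of UMIs on the other 52 members of group 1 was 2.68% against 4.29%. Choosing cells without the most central member of group 1 can itself lower the rest of the group. Only 69 of the 83 cells passed the 2% limit without the pair's UMIs, which can lower the rest too. The part of either was not tested.

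Single members were much lower in the set, while some others of group 1 were higher. Xelaev18019056m.g averaged 0.627 UMIs there and 13.8 in the other high-range cells, and had a UMI in 43.4% of the 83 cells against 98.9%. Xelaev18018652m.g of group 3 had a UMI in 2.41% against 37.4%, and Xelaev18021143m.g of group 4 in 1.20% against 25.9%. Xelaev18014415m.g of group 1 was higher in the set, with 20.6 UMIs against 14.0. These genes were picked for their ratios and are a description. Xelaev18041402m.g of group 2 was near silent in both, with 0.0723 and 0.0588 UMIs.

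Without the 96 cells, NT2 had 89 pairs of group 1 past 0.3 inside the high range, of which 3 were negative. IVF2 then had 116 without its single such cell. The cells were picked because they pull the pair apart, so a fall is partly built in, and the higher count of NT2 than of IVF2 was not seen without them. The r of Xelaev18038704m.g with Xelaev18021227m.g over all NT2 cells rose to 0.464 without them, still below IVF2, and the share of high-range cells in NT2 was 39.2%.

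The NT over IVF level was used to choose the members, so it is a description only. Summed over cells, the members' median log2 ratio of NT over IVF was -0.03 in experiment 1 and -0.04 in experiment 2. In both experiments 22 members were higher and 27 lower in NT, and 41 went opposite ways. Over all 2137 widely detected genes these counts were 484, 574 and 1079, a similar split. In an edgeR quasi-likelihood fit blocked on experiment, 0 of 90 members had a Benjamini-Hochberg adjusted p below 0.05, and 0% of all 18674 genes tested did. At an unadjusted edgeR p below 0.05 there were 16 members (17.8%), against 6.66% of all genes. Most of the genes tested were not widely detected, unlike the members, so the 2 shares are not like for like. DESeq2 called 0 of 90 members and 0.661% of 16501 genes. The fit has 1 residual degree of freedom.

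Of the named members of group 1, Xelaev18038704m.g had the lowest log2 ratio of NT over IVF in experiment 1. Its level was 1293 CPM in IVF1 and 200.2 in NT1, and 1297 in IVF2 and 1081 in NT2. NT1 stood far below the other 3 libraries (log2 ratios of NT over IVF of -2.69 in experiment 1 and -0.26 in experiment 2; edgeR log2 fold change -1.55, SE 0.48, adjusted p 0.554). In NT2 its level stood close to IVF2, but the spread over cells differed: its variance over mean was 33.5 there and 13.7 in IVF2, and the median high-range cell of NT2 held 3 UMIs against 20 in IVF2. Without NT1 its log2 fold change was -0.13 and without NT2 -3.06, in fits without the experiment block. Without a filter on low counts its edgeR adjusted p was 0.00013, in a fit that called 437 genes.

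Xelaev18018652m.g had 111 CPM in IVF1 and 2.66 in NT1, and 109 in IVF2 and 80.2 in NT2. It was found in 38.5% of IVF1, 1.75% of NT1, 34.4% of IVF2 and 33.0% of NT2 cells, so NT1 lacked it in nearly every cell (edgeR log2 fold change -2.76, SE 1.05, adjusted p 0.644). Without NT1 the log2 fold change was -0.32 and without NT2 -5.73, in fits without the experiment block. Without a filter on low counts the edgeR adjusted p of Xelaev18018652m.g was 0.00012, in a fit that called 437 genes. Xelaev18014415m.g had 754 CPM in IVF1 and 496 in NT1, and 388 in IVF2 and 1273 in NT2, and Xelaev18025218m.g 282, 197, 124 and 231 in the same order. These 2 genes were lower in NT in experiment 1 and higher in experiment 2 (log2 ratios of -0.60 and 1.71, and of -0.52 and 0.90), and Xelaev18025218m.g and Xelaev18018652m.g were named after their values were seen.

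More members were called between experiments than between IVF and NT. The same held over all genes, and the rule for members limited only the NT over IVF ratio. In the same fit, 39 of 90 members were higher in experiment 2 (43.3%), against 17.1% of all genes, and 4 were lower (4.44%), against 13.1%. Here too most genes tested were not widely detected, so members and all genes are unlike sets. Xelaev18040850m.g, with the highest mean variance over mean in IVF, had 125 CPM in IVF1 and 281 in NT1, and 1248 in IVF2 and 1089 in NT2. Both libraries of experiment 2 lay above both of experiment 1 (log2 difference 3.19, edgeR with Benjamini-Hochberg adjustment, adjusted p 0.0022). Its r with group 1 was nonetheless 0.510, 0.618, 0.774 and 0.799 in the order of the libraries, so the gene took the same side at each level.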

How the data were processed

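Ectoderm cells were measured by droplet scRNA-seq (10x Genomics, 3' chemistry) in 2 IVF and 2 NT libraries. The authors aligned reads with Cell Ranger, version 2.2.0 per the labels (the methods give a later version for the newer chemistry), to the X. laevis genome and filtered cells. They deposited UMI counts per gene and cell, as whole numbers and not normalized. L and S homeologs of this allotetraploid genome can share reads, so a member may be uncertain where a near-identical copy exists. Groups came from the treatment label and the experiment from the replicate number.

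Cells were thinned to 6000 UMIs (seed 1). The members and lists were chosen with earlier results of these data known. Members were grouped by Ward linkage on 1 minus the mean r in IVF (5 groups, described from 5 members up). Named members were the 8 of most positive and the 8 of most negative loading, the 2 most central of each group, the 5 of highest variance over mean, the most positive and most negative pair and those next to rank 150; few of them are given in full, and others are said to be named after their values were seen. Correlations over cells get no p, since cells are not replicates; the background inside the high range sets the range by all of group 1, while each member pair is left out of its own. Summed counts per library were tested with edgeR 4.0.16 (quasi-likelihood, experiment as block, Benjamini-Hochberg over all genes tested), with DESeq2 1.42.0 as an alternative; a log2 NT over IVF ratio of CPM has 0.5 CPM added. Replicate numbers mark the experiment: over widely detected genes, the differences between experiments in IVF and in NT had an r of 0.789. Scrublet (scanpy 1.11.5; 5% doublets expected) called 55 of 3405 cells (1.62%) doublets, which were kept except in an alternative. With 2 libraries a group, p-values measure the spread between pools. The SE beside an edgeR log2 fold change is the size of that change divided by the square root of the F statistic of its test, since edgeR gives no SE. The group rule and tests were tested on simulated data. Versions were Python 3.11.15, numpy 2.4.6, scipy 1.17.1, pandas 2.3.3 and R 4.3.3.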

Additional observations from a re-analysis of the deposited data

Results flagged for a closer look

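The share of cells in the high range of group 1 went opposite ways: NT minus IVF was -18.7 percentage points in experiment 1 and 8.86 in experiment 2. At a limit of 1.5% of UMIs the shares in experiment 2 lay closer, 43.3% in IVF2 and 45.5% in NT2. Whether the experiments differed was not tested, with 1 library of each kind in either.

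Xelaev18014415m.g of group 1 had a log2 ratio of NT over IVF of -0.60 in experiment 1 and 1.71 in experiment 2. Xelaev18025218m.g of group 3 had -0.52 and 0.90. Neither contrast between experiments was tested.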

How the results depend on the processing

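Member numbers ran from 85 to 120 under other seeds, depths, detection limits and rankings, with 69 (at 3000 UMIs) to 87 of the 90 among them. Applying the exclusions before the ranking gave 150, all 90 among them. Without one IVF library they were 89 to 99, with 68 of the 90 among them without IVF1 and 63 without IVF2. Each list starts from 150 genes, so the number itself says little of which genes stay. Group 1 held 51 to 59 members, except that without one IVF library it held 35 to 54 (35 without IVF2, 29 of them shared with the 54). The mean r of the shares of groups 1 and 2 in IVF was -0.857 with groups formed by Spearman correlation. With groups formed on unthinned log2(CPM + 1) it was -0.856. Both settings changed the grouping only, so the r of the shares was not tested by Spearman correlation or on unthinned cells. The mean r was -0.869 at 12000 UMIs, -0.863 with 3 and -0.859 with 8 groups, and -0.899 to -0.829 without 1 IVF library. Pairs kept in NT were 2752 to 3517, and members within the 150 in both NT libraries 41 to 49 (57 in NT2 and 66 in NT1 alone).

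Without the replicate block, edgeR called 0 members and 0 genes in all. Without a filter on low counts it called 4 members, Xelaev18038704m.g and Xelaev18018652m.g among them, and 437 genes in all. Fits that left a library out had no experiment block and 1 library in a group, so only effect sizes are given. Without one library the log2 fold change of Xelaev18014415m.g was -0.46 (without NT2) to 1.39, and that of Xelaev18025218m.g -0.28 (without NT2; -0.13 without IVF2) to 0.45.

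Alternatives chosen after seeing the data moved the high-range share to 52.1% in IVF1, 30.2% in NT1 and 37.5% in NT2 at a limit of 3%, and to 43.3% in IVF2 at 1.5%. Pairs past 0.3 inside the high range were 34 in IVF1, 398 in IVF2 and 476 in NT2 at 12000 UMIs, 25 in IVF2, 403 in NT1 and 174 in NT2 at a limit of 3%, 22 in IVF1 with 200 cells, and 89 in NT2 without the 96 cells. The causes were not tested. At 6000 UMIs, r of genes near 1 UMI per cell is held down by counting noise.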
